A study of Mus musculus with 8 samples.

Results

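The 10 genes described here encode the nicotinic acetylcholine receptor of embryonic muscle and the proteins that gather it under a nerve ending: Chrna1, Chrnb1, Chrnd, Chrng, Agrn, Lrp4, Musk, Dok7, Rapsn and Ache. They were taken by name, through the mouse Entrez gene ID of each row, and all 10 were found among the 24573 genes of the count table. RNA was sequenced from C2C12 cells, a mouse myoblast line that divides in rich serum and fuses into myotubes when serum is withdrawn. All cells were kept growing below confluence in medium with calf serum, received an shRNA by lentivirus with polybrene, were selected with puromycin at 2 µg/ml and were then held at 1 µg/ml. The 4 groups differed in the shRNA, a scrambled sequence as control or one against Brd9, Baf250A (gene Arid1a) or Baf180 (gene Pbrm1), with 2 libraries per group and 8 in all. The titles name 1 shRNA per target and 1 scramble line, so an effect of the target cannot be told apart from an effect of that hairpin, or from a difference of the scramble line, which all comparisons with control share. The labels do not state whether both libraries of a group were grown as separate cultures. A p-value here therefore reflects the spread between libraries alone, and that spread may be technical.

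At the neuromuscular junction, agrin released by the nerve binds LRP4 on the muscle membrane, and LRP4 then activates the receptor tyrosine kinase MuSK. The adaptor DOK7 binds MuSK and drives its activation, and rapsyn anchors acetylcholine receptors into dense clusters. The embryonic receptor is a pentamer of alpha, beta, delta and gamma subunits, with a pair of alpha chains, and in the adult the epsilon subunit replaces gamma. Acetylcholinesterase, tethered in the synaptic cleft by the collagen ColQ, ends the signal. Receptor genes are known targets of the myogenic regulatory factors MyoD and myogenin, which bind E-boxes. The 3 knockdown targets are subunits of separate forms of the SWI/SNF chromatin remodeller: Brd9 of the non-canonical form, Baf250A of the canonical form, and Baf180 of the PBAF form.

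The stretches before the transcription start are shown for 3 genes that hold the E-box form CAGCTG and for Dok7, which fell in all 3 knockdowns and does not hold it. Each is 250 bases, 5′ to 3′ on the gene's strand and ending at the base before the start, from the RefSeq promoter table on GRCm38.p6, with every E-box (CANNTG, searched on both strands) in capitals. The starts are those of that promoter table. For Musk and Dok7 they lie inside the gene intervals given below, which begin at 58285729 and 35056571. Most of the Musk and Dok7 stretches shown therefore lies within those intervals and not before them.
Chrna1 (minus strand, chr2:73580339-73580588): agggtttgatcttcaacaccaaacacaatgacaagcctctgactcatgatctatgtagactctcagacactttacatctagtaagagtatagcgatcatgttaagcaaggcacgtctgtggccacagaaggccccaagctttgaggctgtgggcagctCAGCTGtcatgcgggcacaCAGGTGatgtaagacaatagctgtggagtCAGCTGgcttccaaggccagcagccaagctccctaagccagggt
Chrng (plus strand, chr1:87205561-87205810): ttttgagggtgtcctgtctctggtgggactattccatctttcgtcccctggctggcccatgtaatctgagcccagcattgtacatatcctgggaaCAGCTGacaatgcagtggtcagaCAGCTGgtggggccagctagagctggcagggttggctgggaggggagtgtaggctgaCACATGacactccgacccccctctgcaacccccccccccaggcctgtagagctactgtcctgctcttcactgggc
Musk (plus strand, chr4:58285712-58285961): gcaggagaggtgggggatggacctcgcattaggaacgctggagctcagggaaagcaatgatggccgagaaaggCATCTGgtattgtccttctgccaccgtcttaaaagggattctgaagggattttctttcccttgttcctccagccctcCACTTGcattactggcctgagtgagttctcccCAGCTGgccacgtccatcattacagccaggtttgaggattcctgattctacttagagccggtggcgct
Dok7 (plus strand, chr5:35056516-35056765): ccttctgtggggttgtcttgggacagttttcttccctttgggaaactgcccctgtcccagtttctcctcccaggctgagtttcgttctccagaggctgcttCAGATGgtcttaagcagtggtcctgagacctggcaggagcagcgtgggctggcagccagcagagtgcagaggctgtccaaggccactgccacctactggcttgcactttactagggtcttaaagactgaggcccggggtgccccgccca
Chrna1 and Chrng each held 2 CAGCTG and 1 further E-box, and Musk held 1 CAGCTG and 2 further E-boxes. In Chrna1 the CAGCTG matches began 92 and 44 bases before the start, and in Chrng they began 155 and 132 bases before it. CAGCTG reads the same on both strands and is itself a CANNTG. Of the 32851 windows of 250 bases in the table, 13% held CAGCTG at least once and 1.26% held it at least 2 times, while 66.2% held a CANNTG. A window was found for 7 of the 10 genes, with 2 starts each for Dok7 and Agrn. All windows but those of Chrna1 and Chrng overlap the interval of their own gene. Chrnb1 held 3 E-boxes and Agrn, Dok7 and Ache 1 each at 1 of their starts, none of them CAGCTG, and the other start of each of Dok7 and Agrn held none. The N-box CCGGAA, an Ets-type element described in synaptic genes and found in 12% of all windows, was in none of the 9 windows, which says only that these letters are absent there. The matches are a description, since binding was not measured.

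**Figure D1:**
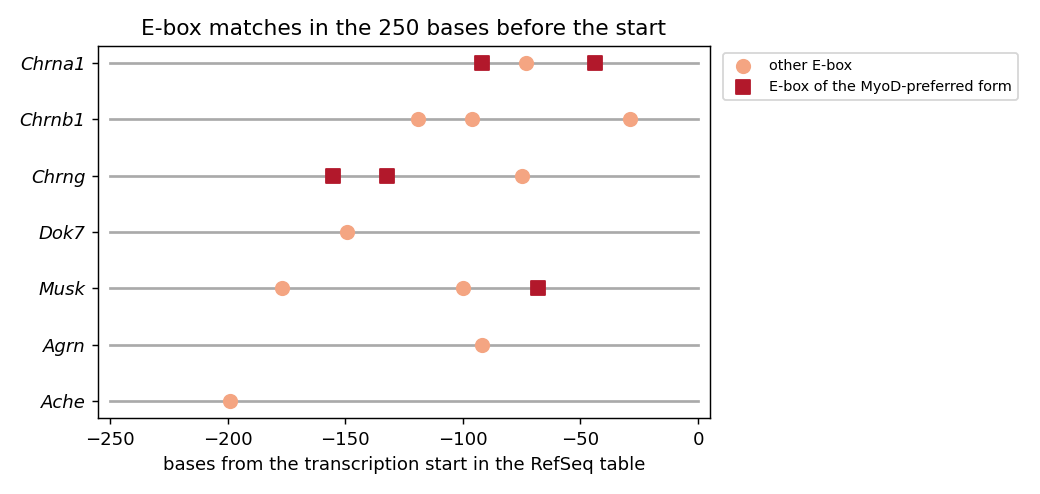
E-box matches in the 250 bases before the transcription start of the 7 genes with a promoter window; the x axis gives the distance of the first base of each match from the start, in bases, squares are CAGCTG (a form MyoD prefers) and circles are other E-boxes. Chrna1 and Chrng hold 2 squares each and Musk 1; for Dok7 and Agrn, which have 2 starts, only 1 start holds a match, and that match is drawn.

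Library totals ran from 17763076 to 20400863 estimated counts. The targeted genes were lower in their own libraries: Brd9 5.24-fold, Arid1a 2.41-fold and Pbrm1 12.4-fold, each at an adjusted p of 0.000184 or less. Adjusted p-values here come from a quasi-likelihood fit of all 8 libraries in edgeR, with Benjamini-Hochberg adjustment over the 12420 genes that passed a filter on low counts, and a gene was called at an adjusted p below 0.05. Levels are CPM, counts scaled to the TMM-adjusted size of each library, and CPM divided by gene length in kilobases where genes are compared with each other. The libraries also differed along transcript GC content: among the 1229 tested genes of lowest GC content the median deviation ran from -1.1 (Baf180 replicate 1) to 1.06 (Baf250A replicate 2) on the log2 scale. Transcript GC content of the 10 genes ran from 46.3% (Chrna1) to 60.4% (Ache), and values from a fit with per-library offsets for GC content and gene length, the offsets, are given beside a value of the 10 genes where they change its call or move its fold change or log2 fold change by over 1.5 times. Of the 10 genes 9 passed the filter, and Ache did not.

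Most of the receptor and synapse genes were lower in Baf250A knockdown. Of the 9 tested genes, 8 fell and 1, Lrp4, rose, against 29.5% of all 12420 tested genes called in that comparison (14.0% lower and 15.5% higher). The median log2 fold change was -1.46 over the 9 genes and -0.02 over all tested genes. Brd9 and Baf180 knockdown each had 3 genes called higher and 3 lower. The shares over all tested genes were 10.0% called in Brd9 knockdown (6.45% higher and 3.57% lower) and 34.2% in Baf180 knockdown (17.2% higher and 17.0% lower). Chrnb1, Chrnd and Dok7 fell in all 3 knockdowns and Lrp4 rose in all 3. Rapsn and Agrn, as well as Chrng, were called in opposite directions in different knockdowns. The 3 comparisons share the scramble libraries, and the shares of all tested genes with such patterns over the 3 were not computed. Below, groups whose libraries do not overlap are described gene by gene. The share of all tested genes without overlap was not computed either. Summed myoblast markers were also lower in Baf250A libraries (926 to 1146 CPM, against 1679 to 1704 in scramble) and higher in Baf180 libraries (2469 to 3479 CPM), and their part in these values was not tested. In bulk RNA, fewer cells of a type and less RNA per cell cannot be told apart.

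**Figure D2:**
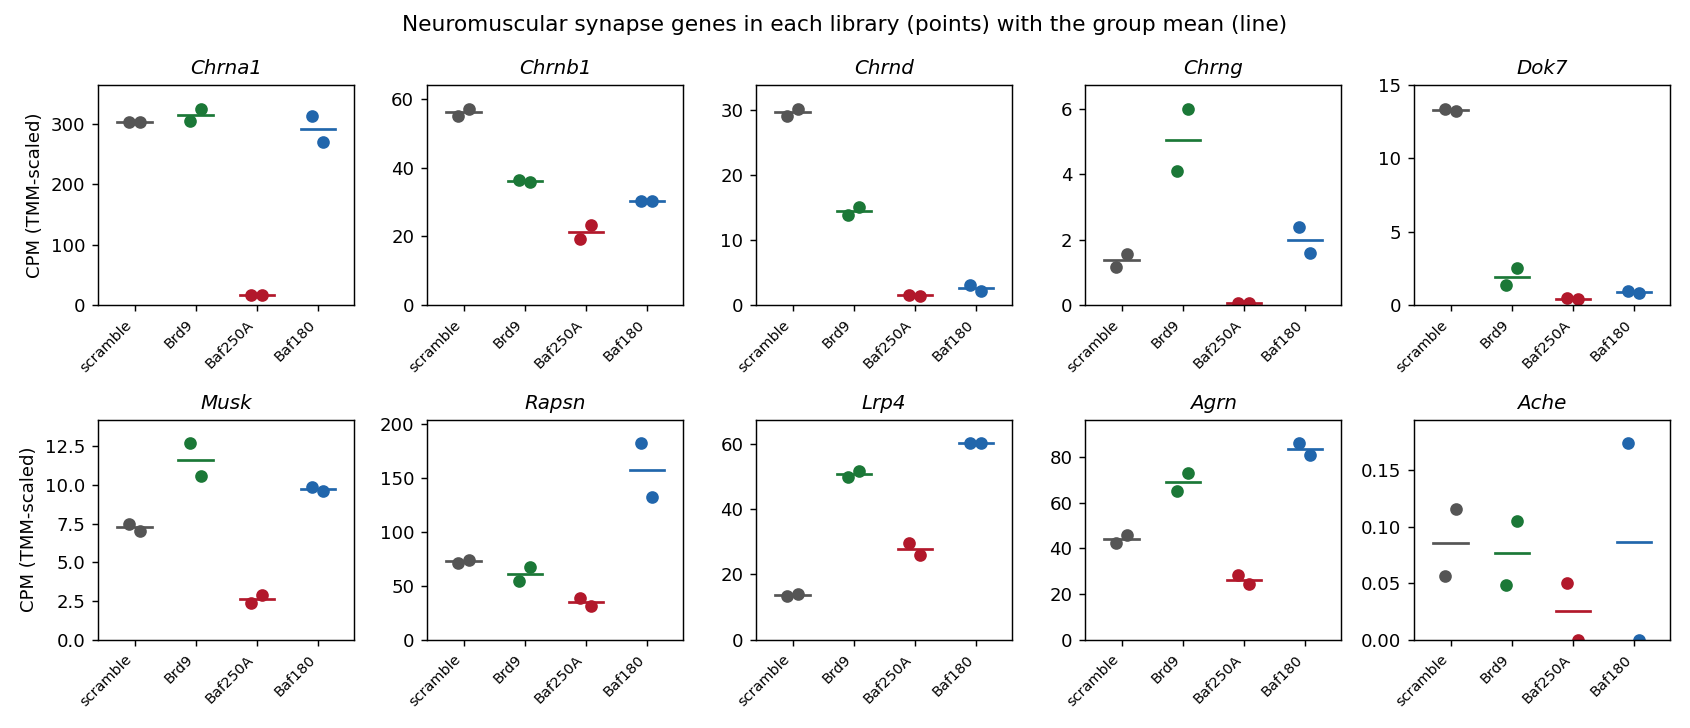
CPM of the 10 genes (y axes, linear from 0, scaled per gene) in the 2 libraries of each shRNA group (points), with the mean as a line. Both Baf250A libraries lie below both scramble libraries for all the tested genes but Lrp4, where they lie above, and Ache is near 0 in every library. The share of all tested genes separated in this way was not computed.

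**Figure D3:**
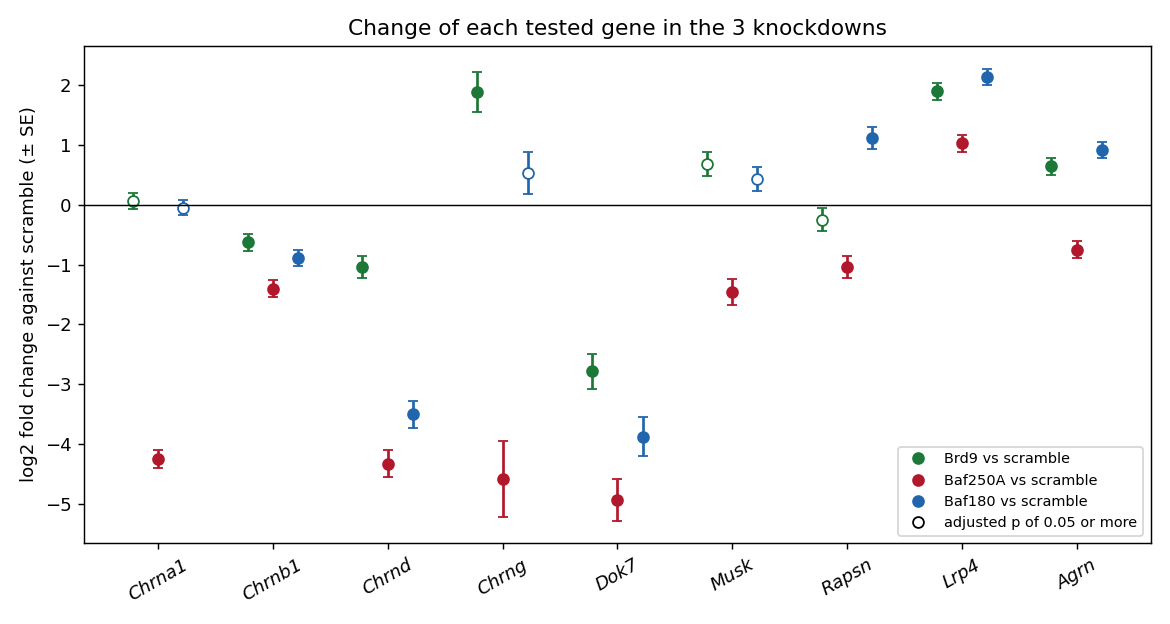
Log2 fold change against scramble with its SE for the 9 tested genes, with Brd9, Baf250A and Baf180 knockdown side by side; open circles did not pass an adjusted p of 0.05. Chrna1 stands near 0 in Brd9 and Baf180 knockdown and at -4.24 in Baf250A knockdown.

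Chrna1 encodes the alpha subunit, which carries most of the acetylcholine binding site (chromosome 2, 73563281 to 73580338, mm10, which is GRCm38). It had 302 CPM in each scramble library, 304 and 325 after Brd9 knockdown, and 313 and 269 after Baf180 knockdown. In the Baf250A libraries it had 16.1 and 15.8 CPM, far below the other 6 libraries, which lay within 269 to 325. The fall in Baf250A knockdown was 18.9-fold against scramble (log2 fold change -4.24, SE 0.15, adjusted p = 1.37e-06). It was 19.7-fold against Brd9 knockdown (adjusted p = 2.3e-06) and 18.2-fold against Baf180 knockdown (log2 difference -4.19, adjusted p = 2.82e-06; -4.78 with the offsets). With any 1 of the 8 libraries left out the log2 fold change stayed between -4.24 and -4.17, and with the GC and length offsets it was -4.49 (SE 0.20). Against scramble, Chrna1 differed by 0.06 (SE 0.13, adjusted p = 0.774) in Brd9 and by -0.05 (SE 0.13, adjusted p = 0.757) in Baf180 knockdown on the log2 scale. With the offsets both signs turned, to -0.19 (SE 0.17, adjusted p = 0.404) and 0.29 (SE 0.17, adjusted p = 0.194), and neither was called. A long non-coding gene, Gm30940, overlaps Chrna1 in the RefSeq table, and the sources used here do not give whether counting used strand, so a part of these counts could come from it.

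Chrnb1 encodes the beta subunit (chromosome 11, 69784036 to 69795966). Its levels were 55.2 and 57.3 CPM in scramble, 36.6 and 35.8 in Brd9, 30.3 and 30.4 in Baf180 and 19.4 and 23.2 in Baf250A libraries. No 2 groups overlapped, and scramble was highest and Baf250A lowest. Against scramble it fell 2.64-fold in Baf250A (log2 fold change -1.40, SE 0.14, adjusted p = 0.000239), 1.85-fold in Baf180 (adjusted p = 0.00258) and 1.55-fold in Brd9 knockdown (adjusted p = 0.0239). The last of these calls ended when any 1 of the 4 libraries compared was left out (adjusted p up to 0.187). Between knockdowns, Baf250A lay below Brd9 (adjusted p = 0.00542) and below Baf180 (log2 difference -0.51, adjusted p = 0.0122; -0.30 with the offsets, and adjusted p = 0.139 without Baf250A replicate 1). Brd9 and Baf180 were not called apart (log2 difference 0.25, adjusted p = 0.158), but they were with the offsets (0.35, SE 0.11, adjusted p = 0.0322). Chrnb1 had the smallest fall of the 4 subunits in Baf250A knockdown by fitted fold change.

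Chrnd encodes the delta subunit (chromosome 1, 87190597 to 87200070). It had 29.1 and 30.2 CPM in scramble and 13.8 and 15 in Brd9 libraries. In Baf180 it had 3.07 and 2.18 CPM and in Baf250A 1.56 and 1.39. The groups did not overlap, and they followed the order scramble, Brd9, Baf180, Baf250A. The fall was 20-fold in Baf250A (log2 fold change -4.32, SE 0.23, adjusted p = 1.22e-05) and 11.3-fold in Baf180 knockdown (-3.50, SE 0.22, adjusted p = 2.79e-05). In Brd9 knockdown it was 2.06-fold (-1.04, SE 0.19, adjusted p = 0.0102), a call that ended without scramble replicate 1, scramble replicate 2 or Brd9 replicate 1 (adjusted p = 0.0669, 0.0983 and 0.1). Brd9 and Baf180 knockdown differed 5.48-fold (adjusted p = 0.000599). The neighbours at the low end, Baf250A and Baf180, were called apart by 0.82 (SE 0.25, adjusted p = 0.017), but not with the GC and length offsets (difference 0.19, Baf250A lower, SE 0.20, adjusted p = 0.513) nor without either Baf250A library or Baf180 replicate 1 (adjusted p up to 0.119).

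Chrng encodes the embryonic gamma subunit and lies 5.74 kb beyond Chrnd on chromosome 1 (87205811 to 87211835). It was a rare transcript, with 21 and 27 counts in scramble, 85 and 115 in Brd9, 41 and 29 in Baf180 and 1 and 1 in Baf250A libraries. These are 1.18 and 1.56 CPM in scramble, 4.12 and 6.02 in Brd9, 2.38 and 1.58 in Baf180 and 0.0503 and 0.0516 in Baf250A libraries. No 2 groups overlapped by library, but scramble (up to 1.56 CPM) and Baf180 (from 1.58 CPM) nearly met. Brd9 was highest and Baf250A lowest. The level in Baf250A knockdown was 0.0373 times that in scramble (95% counting interval 0.00439 to 0.142, from 2 against 48 counts; adjusted p = 0.00123). It was 0.0101 times that in Brd9 knockdown (95% counting interval 0.00122 to 0.037). In Brd9 knockdown Chrng rose 3.69-fold against scramble (log2 fold change 1.88, SE 0.33, adjusted p = 0.00902), while Chrnd fell in the same libraries. That rise was not called without scramble replicate 1 (log2 fold change 1.69, adjusted p = 0.0828) or scramble replicate 2 (2.09, adjusted p = 0.0598). In Baf180 knockdown Chrng differed from scramble by 0.53 (SE 0.35, adjusted p = 0.266), and by 0.28 (SE 0.31) with the offsets. Brd9 lay above Baf180 knockdown (2.56-fold, adjusted p = 0.0101), which was not called without Brd9 replicate 2 (adjusted p = 0.056).

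Per kilobase of gene length, the 4 subunit transcripts summed to 106 and 107 CPM per kb in scramble, 94.1 and 100 in Brd9, 88.8 and 77.9 in Baf180 and 13.3 and 15 in Baf250A libraries. Chrna1 made up 66.0% and 65.1% of that sum in scramble libraries, and its share was higher in Brd9 (74.8% and 75.2%) and Baf180 libraries (81.6% and 79.8%). In Baf250A libraries Chrna1 made up 28% and 24.5%, and Chrnb1 was the main subunit transcript at 67.9% and 72.3%. Chrnd made up 9.15% and 9.36% in scramble and 1.15% and 0.933% in Baf180 libraries. Chrng made up 2.28% and 3.13% in Brd9 libraries and 0.58% and 0.757% in scramble. The ratio of Chrna1 to Chrnb1 per length was 2.72 and 2.62 in scramble and 0.413 and 0.339 in Baf250A libraries. These shares are a description with no test, they are RNA and not receptor, and they rest on the deposited gene lengths. The epsilon subunit gene Chrne had 0 counts in all 8 libraries, which at 3 counts per library allows up to 0.151 CPM in Brd9 and 0.171 CPM in scramble libraries, counting error only.

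**Figure D4:**
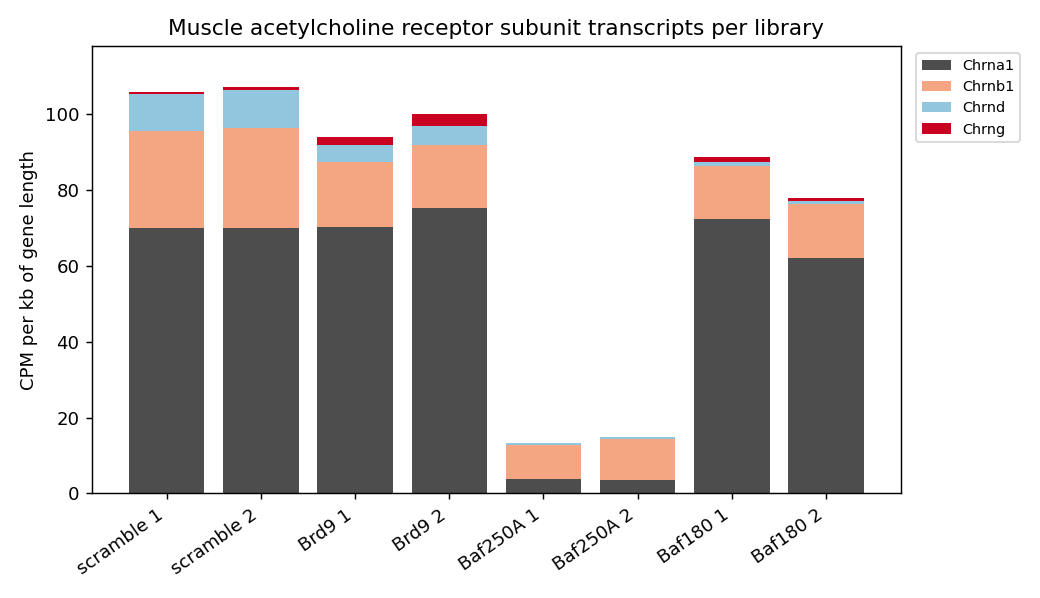
Summed CPM per kilobase of gene length of the 4 receptor subunit genes (y axis, linear from 0) in each of the 8 libraries, stacked by gene. The Baf250A bars reach 13.3 and 15 and are mostly Chrnb1, and the scramble bars reach 106 and 107 and are mostly Chrna1.

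Agrn encodes agrin, which muscle cells also make in a form with little clustering activity (chromosome 4, 156165290 to 156197533). It had 42.5 and 45.9 CPM in scramble, 65.3 and 72.9 in Brd9, 86.0 and 80.8 in Baf180 and 28.3 and 24.3 in Baf250A libraries. The groups did not overlap, with Baf180 highest and Baf250A lowest. It rose 1.89-fold in Baf180 knockdown (log2 fold change 0.91, SE 0.14, adjusted p = 0.00212; 0.51, SE 0.09, with the offsets). It fell 1.68-fold in Baf250A knockdown (-0.75, SE 0.14, adjusted p = 0.00576), which was not called without scramble replicate 2 (adjusted p = 0.0539) or Baf250A replicate 2 (adjusted p = 0.0732). The rise of 1.56-fold in Brd9 knockdown (adjusted p = 0.0221) was not called without any 1 of the 4 libraries compared (adjusted p up to 0.192). Directly compared, Agrn was 2.63-fold lower in Baf250A than in Brd9 knockdown (adjusted p = 0.000258) and 3.17-fold lower than in Baf180 knockdown (log2 difference -1.66, adjusted p = 5.92e-05; -1.03 with the offsets). Brd9 and Baf180 were not called apart (log2 difference -0.27, adjusted p = 0.124, and -0.00 with the offsets). The RefSeq table has a long non-coding gene, Gm46878, that overlaps Agrn.

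Lrp4 encodes the agrin receptor (chromosome 2, 91457456 to 91513901). It was lowest in scramble, at 13.5 and 14.0 CPM, and higher in Baf250A at 29.8 and 26.0, in Brd9 at 49.8 and 51.7 and in Baf180 at 60.2 in both libraries. The groups did not overlap. Lrp4 rose 4.38-fold in Baf180 (log2 fold change 2.13, SE 0.14, adjusted p = 3.63e-05), 3.69-fold in Brd9 (1.89, SE 0.14, adjusted p = 0.000165) and 2.03-fold in Baf250A knockdown (1.02, SE 0.14, adjusted p = 0.00126). All 3 calls held with any single library left out and with the offsets. Baf250A knockdown lay below Brd9 (1.82-fold, adjusted p = 0.00232) and Baf180 (2.15-fold, adjusted p = 0.000245). The neighbours Brd9 and Baf180 were not called apart (log2 difference -0.25, adjusted p = 0.147, and -0.14 with the offsets).

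Musk encodes the kinase that LRP4 activates (chromosome 4, 58285729 to 58377848). Its levels were 7.47 and 7.05 CPM in scramble, 12.7 and 10.6 in Brd9, 9.85 and 9.60 in Baf180 and 2.36 and 2.89 in Baf250A libraries. Baf250A libraries were the lowest and Brd9 libraries the highest, without overlap between groups. Musk fell 2.76-fold in Baf250A knockdown (log2 fold change -1.46, SE 0.22, adjusted p = 0.00182), and it was 4.43-fold lower than in Brd9 (adjusted p = 0.000224) and 3.70-fold lower than in Baf180 knockdown (adjusted p = 0.000187). Against scramble it stood at 0.68 (SE 0.20, adjusted p = 0.059) in Brd9 and at 0.42 (SE 0.20, adjusted p = 0.127) in Baf180 knockdown. With the offsets the Brd9 difference was called (0.65, SE 0.16, adjusted p = 0.0117).

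Dok7 encodes the adaptor that MuSK needs for full activation (chromosome 5, 35056571 to 35087839). It had 238 and 229 counts in scramble, 28 and 48 in Brd9, 17 and 15 in Baf180 and 9 and 8 in Baf250A libraries, or 13.4 and 13.2, 1.36 and 2.51, 0.985 and 0.818, and 0.453 and 0.413 CPM. All 6 knockdown libraries lay well below the scramble libraries, and the knockdown groups did not overlap each other. The falls were 30.3-fold in Baf250A (log2 fold change -4.92, SE 0.35, adjusted p = 4.07e-05), 14.7-fold in Baf180 (-3.87, SE 0.32, adjusted p = 0.000109) and 6.88-fold in Brd9 knockdown (-2.78, SE 0.29, adjusted p = 0.000669). Each was called with any single library left out. Among the knockdowns Baf250A lay below Brd9 (4.40-fold, adjusted p = 0.00476). The neighbours Baf250A and Baf180 were not called apart (log2 difference -1.04, SE 0.43, adjusted p = 0.0604). With the offsets that difference was -0.15 (SE 0.39, adjusted p = 0.783), while it was called with no filter (adjusted p = 0.0402) and without Brd9 replicate 1 or 2 (adjusted p = 0.037 and 0.0372). Brd9 lay above Baf180 (2.13-fold, adjusted p = 0.03), which was not called without Brd9 replicate 2 (adjusted p = 0.201), either Baf180 library or either scramble library.

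Rapsn encodes rapsyn, the receptor-clustering scaffold (chromosome 2, 91035472 to 91045729, 412 kb from Lrp4). It had 71.5 and 73.9 CPM in scramble, 54.9 and 67.2 in Brd9, 38.9 and 31.7 in Baf250A and 182 and 132 in Baf180 libraries. Both Baf180 libraries were above all others and both Baf250A libraries below all others. Rapsn rose 2.16-fold in Baf180 (log2 fold change 1.11, SE 0.19, adjusted p = 0.00318) and fell 2.06-fold in Baf250A knockdown (-1.04, SE 0.19, adjusted p = 0.00483). Both calls held with the offsets at smaller sizes, 0.62 (SE 0.08) and -0.60 (SE 0.08). In Brd9 knockdown it stood at -0.25 (SE 0.19, adjusted p = 0.379), and at -0.13 (SE 0.08) with the offsets. The direct difference between Baf250A and Baf180 knockdown was 4.44-fold (log2 difference -2.15, adjusted p = 6.98e-05; -1.23 with the offsets). Rapsn was 2.57-fold lower in Brd9 than in Baf180 knockdown (log2 difference -1.36, adjusted p = 0.00286; -0.76 with the offsets). It was 1.73-fold lower in Baf250A than in Brd9 knockdown (log2 difference -0.79, adjusted p = 0.0157; -0.47 with the offsets), which was not called without Brd9 replicate 2 (adjusted p = 0.107) or Baf250A replicate 2 (adjusted p = 0.117). Per length, Rapsn was at 44.2 and 45.6 CPM per kb in scramble libraries, second among the 10 genes to Chrna1 at 69.9 in both. The RefSeq table lists Gm13778 as overlapping Rapsn.

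Ache encodes acetylcholinesterase (chromosome 5, 137288247 to 137294466). It had 1 and 2 counts in scramble, 1 and 2 in Brd9, 1 and 0 in Baf250A and 3 and 0 in Baf180 libraries. All groups were at or under 3 counts per library, so no difference was detectable at this depth. Colq, which encodes the collagen tail of the enzyme and also failed the filter, had 0 counts in both scramble libraries, 10 and 7 in Brd9, 2 and 3 in Baf250A and 7 and 5 in Baf180 libraries. Taking 3 counts per library for scramble, Colq was at least 2.49-fold higher in Brd9 and at least 1.98-fold higher in Baf180 libraries, with no test.

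Between knockdowns all 9 tested genes were lower in Baf250A than in Brd9 knockdown, where 25.0% of all tested genes were called, 10.0% higher and 15.0% lower. Of the 9, 8 were lower in Baf250A than in Baf180 knockdown, with 62.5% of all tested genes called, 30.8% higher and 31.7% lower. Brd9 and Baf180 knockdown differed in 4 of the 9 genes, against 49.6% of all tested genes called (26.3% higher and 23.3% lower in Brd9): Chrnd, Chrng and Dok7 were higher and Rapsn lower in Brd9 knockdown. Chrna1 was not called between Brd9 and Baf180 (log2 difference 0.11, SE 0.13, adjusted p = 0.461), and with the offsets the sign turned (-0.49, SE 0.17, adjusted p = 0.0478). The 3 direct comparisons share libraries with each other and with those against scramble.

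Among the myogenic regulatory factors, Myod1 was abundant in every library: 154 and 157 CPM in scramble, 143 and 181 in Brd9, 129 and 101 in Baf250A and 366 and 292 in Baf180 libraries. It rose 2.12-fold in Baf180 knockdown (log2 fold change 1.09, SE 0.18, adjusted p = 0.00295; 0.59 with the offsets). In Baf250A knockdown Myod1 stood at -0.43 (SE 0.18, adjusted p = 0.0925; 0.01 with the offsets). That difference was called lower with no filter (adjusted p = 0.0438) and in a fit of the 4 libraries compared (adjusted p = 0.046). A part of Myod1 in the receptor gene values was not tested. Myog, the gene of myogenin, had 4 and 4 counts in scramble, 17 and 29 in Brd9, 28 and 25 in Baf180 and 2 and 7 in Baf250A libraries. It was called higher in Baf180 (log2 fold change 2.68, SE 0.58, adjusted p = 0.00893) and Brd9 knockdown (2.32, SE 0.59, adjusted p = 0.0395). Neither Myog call held without scramble replicate 1 or 2 (adjusted p up to 0.203 in Brd9 and 0.0573 in Baf180 knockdown). The Baf180 call also ended without Baf180 replicate 1 (0.0529), and the Brd9 call also without any Brd9 or Baf180 library and in DESeq2 and limma-voom (0.0569 and 0.0517). Myf5 fell 2.80-fold in Baf180 (log2 fold change -1.49, adjusted p = 0.00384; -0.86 with the offsets) and 1.81-fold in Baf250A knockdown (-0.86, adjusted p = 0.0331; -1.53 with the offsets), the latter call ending without any 1 of the 4 libraries compared (adjusted p up to 0.182). Myf6 had at most 4 counts in any library and was not tested.

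**Figure D5:**
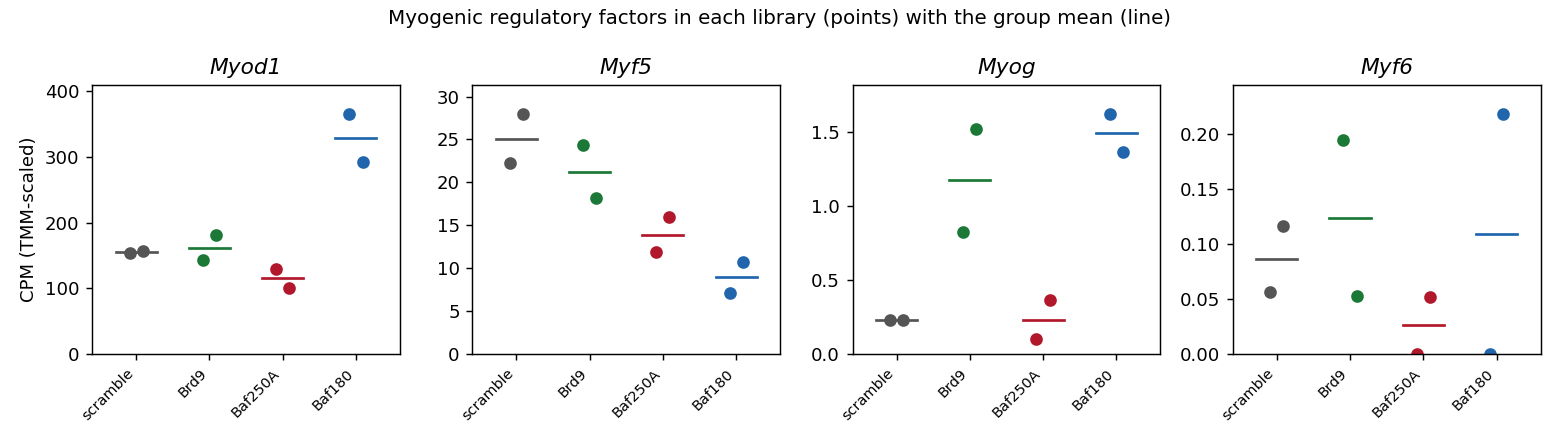
CPM of the 4 myogenic regulatory factor genes (y axes, linear from 0, scaled per gene) in the 2 libraries of each group (points), with the mean as a line. Myod1 is highest in both Baf180 libraries, and Myog is at 0.361 CPM or less in the scramble and Baf250A libraries.

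The other genes of the pathway were counted in 4 lists and a list of further receptor subunits. Of 12 further acetylcholine receptor subunit genes, which include the neuronal ones, only Chrnb2 passed the filter, and it was not called in any comparison. Of 22 genes of MuSK signalling and the cytoskeleton, all tested, 4 rose and 3 fell in Baf250A, 1 rose and 8 fell in Baf180, and 1 rose and 1 fell in Brd9 knockdown, with medians of 0.25, -0.22 and 0.05 on the log2 scale. Over all tested genes 29.5%, 34.2% and 10.0% were called in those comparisons, against 7, 9 and 2 of the 22. Src, a kinase that phosphorylates the receptor, fell 2.24-fold in Baf250A knockdown (log2 fold change -1.16, adjusted p = 0.00144; -0.77 with the offsets). Its fall of 1.55-fold in Brd9 knockdown (adjusted p = 0.0406) was not called without scramble replicate 1 or 2 or Brd9 replicate 1 (adjusted p up to 0.293). Cdc42, a small GTPase that regulates actin, fell 3.92-fold (log2 fold change -1.97, adjusted p = 0.000595; -1.35 with the offsets) and Sorbs2 5.84-fold (adjusted p = 0.00134) in Baf180 knockdown.

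Of 14 tested genes of the synaptic basal lamina and membrane linkers, 5 rose and 2 fell in Baf250A, 7 rose and 0 fell in Baf180, and 4 rose and 0 fell in Brd9 knockdown. The shares called higher over all tested genes were 15.5%, 17.2% and 6.45% in those comparisons, and the shares called lower were 14.0%, 17.0% and 3.57%. Lama4, a laminin chain of the synaptic lamina, had 1.07 and 0.751 CPM in scramble, 4.90 and 3.72 in Brd9, 28.1 and 27.3 in Baf250A and 22.4 and 20.1 in Baf180 libraries. All 6 knockdown libraries were above scramble, with rises of 30.2-fold in Baf250A (adjusted p = 1.11e-05), 23.1-fold in Baf180 (adjusted p = 1.63e-05) and 4.71-fold in Brd9 knockdown (adjusted p = 0.0013). Nid2, a basement membrane nidogen, rose 5.24-fold in Baf180, 4.72-fold in Brd9 and 3.41-fold in Baf250A knockdown (adjusted p = 1.59e-05, 5.77e-05 and 4.44e-05).

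Of 10 tested genes of the neuregulin pathway and synaptic transcription, 2 rose and 3 fell in Baf250A, 2 and 2 in Baf180, and 1 and 1 in Brd9 knockdown, against 29.5%, 34.2% and 10.0% of all tested genes called. Egfr, a receptor of the family that binds neuregulins and related ligands, rose 3.41-fold in Baf250A knockdown (adjusted p = 0.00014). Its rises of 1.70-fold in Brd9 (log2 fold change 0.77, adjusted p = 0.0204; 0.47 with the offsets) and 1.59-fold in Baf180 knockdown (adjusted p = 0.014) were not called without either scramble library (adjusted p up to 0.199 and 0.12), nor the first without Brd9 replicate 1 (adjusted p = 0.144). The other calls named by rule here also ended with 1 library left out. These were a fall of 2.15-fold of the Ets factor Etv4 in Brd9 knockdown (adjusted p = 0.0152, and up to 0.122), a rise of 2.10-fold of the N-box-binding factor Gabpa in Baf250A knockdown (adjusted p = 0.0119, and up to 0.0849), and a rise of 1.52-fold of the receptor Erbb2 in Baf180 knockdown (adjusted p = 0.0237, and up to 0.148). Gabpa and Erbb2 were not called with the offsets either (log2 fold changes 0.26 and 0.18). Etv4 was also called lower in Baf250A (log2 fold change -0.75, adjusted p = 0.0305; -0.36 with the offsets) and Baf180 knockdown (-0.70, adjusted p = 0.035; -1.20 with the offsets). Gabpa was called lower in Baf180 knockdown (-0.81, adjusted p = 0.0317), but not with the offsets (-0.13). These further calls also ended without either scramble library.

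Of 17 tested muscle transcription factors and corepressors, 6 rose in each knockdown, and 2 fell in Baf250A, 3 in Baf180 and 1 in Brd9 knockdown, against the same shares. Msc, the gene of the E-box-binding repressor musculin, had 87 and 94 counts in scramble, 41 and 51 in Brd9, 8 and 13 in Baf180 and 0 and 0 in Baf250A libraries. It was at least 33.7-fold lower in Baf250A knockdown at 3 counts per library, and it fell 8.67-fold in Baf180 knockdown (adjusted p = 0.000791). Id1 and Id3 encode inhibitors of MyoD-type factors. Id1 rose 1.68-fold in Baf250A (adjusted p = 0.00366) and 1.58-fold in Baf180 knockdown (log2 fold change 0.66, adjusted p = 0.00569; 0.34 with the offsets). Id3 rose 2.13-fold in Baf180 (adjusted p = 0.00113), 1.65-fold in Baf250A (adjusted p = 0.00734) and 1.49-fold in Brd9 knockdown (adjusted p = 0.0378). The corepressor Hdac4 rose 1.81-fold in Brd9 (adjusted p = 0.00852), 1.64-fold in Baf250A (adjusted p = 0.00852) and 1.43-fold in Baf180 knockdown (adjusted p = 0.0264). Of these calls of Id1, Id3 and Hdac4, only that of Id3 in Baf180 knockdown held without scramble replicate 1. The Hdac4 call in Brd9 knockdown also ended without scramble replicate 2 or Brd9 replicate 1.

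The genes nearest to Chrna1 were found by the root-mean-square difference of log2(CPM + 1), centred per gene, over the 8 libraries, among the 9801 other genes whose mean reached 5 CPM. They were Tubb3, a tubulin of neurons (0.40 on the log2 scale), Actn3, the fast-fibre alpha-actinin (0.49), Hr (0.65), Mycl (0.67) and Vash1 (0.68). Tubb3 had 147 and 143 CPM in scramble and 12.2 and 11.4 in Baf250A libraries, and Actn3 had 70.9 and 65.7 and then 5.63 and 4.34. The genes nearest to Dok7 were Igsf5 (0.22), Xirp1, which binds actin in striated muscle (0.38), Adgrg1 (0.49), Wwc1 (0.50) and Blnk (0.52). Igsf5 had 18.9 and 19.4 CPM in scramble, 4.56 and 4.35 in Brd9, 2.20 and 2.13 in Baf180 and 1.31 and 1.34 in Baf250A libraries. Dok7 lay at 2.51 CPM or less in the knockdown libraries, where the added 1 shrinks differences on this scale. Its log2 fold changes in Brd9, Baf250A and Baf180 knockdown were -2.78, -4.92 and -3.87. Those of Xirp1 were -2.43, -5.22 and -4.24, and those of Adgrg1 were smaller, at -1.07, -2.39 and -2.02. The likeness is a description over 8 libraries of 4 groups.

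The labelled cell type was checked against marker genes. Of 10 myoblast markers 9 were tested, led by Des at up to 2065 CPM, and their summed level was 1679 to 1704 CPM in scramble, 1439 to 1876 in Brd9, 926 to 1146 in Baf250A and 2469 to 3479 in Baf180 libraries. Without Des the other 9 summed to 728 to 729 CPM in scramble, 760 to 899 in Brd9, 363 to 407 in Baf250A and 1162 to 1414 in Baf180 libraries. Chrdl2 was at 0 in every library. Of the 9 tested myoblast markers, 4 fell and 1 rose in Baf250A, 7 rose and 1 fell in Baf180, and 4 rose and 0 fell in Brd9 knockdown. The shares of all tested genes called in those comparisons were 29.5%, 34.2% and 10.0%. Pax7, a satellite cell factor, had 57 and 48 counts in scramble, 240 and 195 in Brd9, 18 and 4 in Baf250A and 266 and 254 in Baf180 libraries. Other markers of that list ran the other way. Vcam1 was higher in Baf250A libraries (2174 and 2358 counts, against 1019 and 931 in scramble). Myf5 was lower in Baf180 libraries (123 and 197 counts, against 396 and 484 in scramble). The 16 markers of differentiating muscle, of which 9 were tested, summed to 25.9 to 29.4 CPM in scramble, 24.5 to 30.7 in Brd9, 39.6 to 44.3 in Baf250A and 101 to 123 in Baf180 libraries, and none was at 0 in all libraries. Acta1 was the highest of them, and without it the other 15 summed to 10 to 12.1 CPM in scramble, 15.1 to 16.9 in Brd9, 3.17 to 4.39 in Baf250A and 6.98 to 9.45 in Baf180 libraries. The order of the groups differed with and without Acta1. Of the 9 tested, 6 rose in Brd9 knockdown, 3 rose and 2 fell in Baf180, and 1 rose and 2 fell in Baf250A knockdown, against the same shares. The 8 fibroblast markers, of which 4 were tested and Lum was at 0, summed to 162 to 166 CPM in scramble, 326 to 343 in Brd9, 334 to 349 in Baf250A and 389 to 394 in Baf180 libraries. Without Col1a1, the highest, the other 7 summed to 25.3 to 26.5 CPM in scramble and 49.5 to 66.7 in Brd9 libraries. That sum was 98.9 to 112 in Baf250A and 61.4 to 62.5 in Baf180 libraries, so here Baf250A was highest. The sum came mostly from Pdgfra and Ly6a. Dcn had 3 and 6 counts in Baf250A and 11 and 18 in Baf180 libraries, and Dpt, Thy1 and Pi16 had 4 counts or fewer in any library. Of the 4 tested, 3 rose in Brd9, 3 in Baf250A and 4 in Baf180 knockdown, and 0 fell, against the same shares. The part of these shifts in the values above was not tested. None of the 9 motor neuron markers passed the filter, with Chat, Mnx1 and Snap25 at 0 in all libraries and a sum of at most 1.04 CPM. Of 8 Schwann cell markers only Mbp and Erbb3 passed, and Sox10 had 2 counts in scramble replicate 2 and 0 elsewhere.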

How the data were processed

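RNA was measured in 8 libraries of C2C12 cells, 2 for each of 4 shRNAs, with groups taken from the sample titles. Estimated counts of each gene, not normalised, fill the deposited table, and 1 other deposited column gives gene length in bases, per the file headers. Build mm10 and the tools RSEM, Bowtie2, HISAT2, StringTie, Cufflinks and DESeq2 are listed, without role or version, per the submitters' processing notes. Estimated counts, as deposited by the authors, were rounded to whole numbers. Of 24573 genes 24479 were matched by gene ID and 9 by accession to RefSeq names on GRCm38.p6, and 85 were not.

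Genes were kept by filterByExpr (12420), scaled by TMM (factors 0.846 to 1.12) and tested in edgeR 4.0.16 (glmQLFit, glmQLFTest, R 4.3.3) with 4 groups and no covariate, in 6 comparisons. The SE is |log2 fold change| over the square root of F. Replicates differed by more than counting noise (chi-square per degree of freedom 8.55 to 48.9). No molecular identifiers are stated, so intervals and limits from counts hold for counting error alone. The procedure was tested on simulated counts.

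The members and gene lists were chosen with earlier results of these data known. Genes were named by rule: all 10 members, up to 2 called genes of lowest p per other list and comparison with scramble, Chrne, Colq and 4 myogenic factors, and the 5 genes nearest to Chrna1 and to Dok7. Of the genes this rule names, 2 are not reported here. Single markers such as Pax7 were picked after their values were seen. Alternatives were scaling by RLE or by upper quartile, no filter, a 5 CPM minimum on the mean, limma-voom (limma 3.58.1), DESeq2 1.42.0, a fit of the 4 libraries compared, a replicate block, GC and length offsets (per-library loess, span 0.3, on GENCODE M21 transcript GC content, found for 98.95% of tested genes), both of these together, and each library left out.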

Additional observations from a re-analysis of the deposited data

How the results depend on the processing

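Over the 6 comparisons the 54 values of the 9 tested genes were computed under 18 alternatives, 960 values in all. Of these, 915 kept their side of the threshold and, where called, their direction, 35 lost a call and 9 gained one. The remaining value, Chrna1 between Brd9 and Baf180 knockdown with the GC and length offsets (-0.49), gained a call with its sign turned. Turns of sign between values that were not called count as kept, such as Chrna1 in Brd9 knockdown (0.06, and -0.19 with the offsets). For the 84 values of other named genes, 1378 of 1505 were kept in this sense, 105 lost a call and 20 gained one. The other 2, both Vash1 in Baf180 knockdown with the offsets, with and without the block (-0.44 each), gained a call with the sign turned. With 1 library left out the number of the genes called was 2 to 6 (6 with all libraries) for Brd9, 8 to 9 (9) for Baf250A and 6 (6) for Baf180 knockdown against scramble. It was 8 to 9 (9) for Baf250A against Brd9, 6 to 9 (8) for Baf250A against Baf180 and 2 to 4 (4) for Brd9 against Baf180 knockdown. Against scramble, the Brd9 count dropped to 2 (Dok7 and Lrp4) when either scramble library was omitted and to 3 when Brd9 replicate 1 was. A lone library of a group was assumed to vary like the others. Requiring a mean of at least 5 CPM removed Chrng and Dok7 from the test and left 2 genes called between Brd9 and Baf180 knockdown. The difference of replicate 2 from replicate 1 correlated between groups from -0.48 (Brd9 with Baf180) to 0.46 (Baf250A with Baf180). It did not run the same way in all groups, and whether some groups shared a batch was not tested. With the replicate block 4 genes were called in Brd9 knockdown, with Chrnb1 (-0.63, adjusted p = 0.0572) and Agrn (0.64, adjusted p = 0.0546) no longer called. Depth limited Ache, Colq, Chrne and Myf6, which had too few counts to test.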
